A study of Rattus norvegicus with 8 samples.

Results

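Wnt signaling was followed through 37 genes, each measured by 1 probe in 1 spot of the Arraystar rat lncRNA array, out of 13888 genes that the mRNA probes of this array could be matched to. The members are the genes whose RefSeq symbol begins with Wnt, Fzd, Sfrp, Dkk or Rspo followed by a number, together with Frzb, Axin2, Lgr5, Ctnnb1, Apc and Lef1. They comprised 14 Wnt ligands, 3 R-spondins, 7 Frizzled receptors, 4 Dickkopf antagonists, 4 Wnt-binding antagonists, 3 cytoplasmic genes (Ctnnb1, Apc and Axin2), the R-spondin receptor Lgr5 and the nuclear factor Lef1. Other genes of the same rule, among them Wif1, Lrp5, Lrp6, Tcf7, Nkd1, Sfrp1 and Wnt3a, were matched to no probe and are not analysed here.

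All samples came from male F344 rats in the 95th week. NNK is a carcinogenic nitrosamine of tobacco smoke. Rats given NNK provided 3 lung tumors, 3 pieces of normal lung described as matched to them, and 1 sample of blood clot. The control group provided 1 further sample of blood clot, and the labels do not say how many rats each clot sample holds. The normal lung therefore carried the same NNK treatment as the tumors, and lung of untreated rats was not part of the arrays. The tumors were moderately differentiated adenocarcinomas according to the study's methods, and each lung sample was a piece of whole tissue holding many cell types.

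Wnt ligands are secreted glycoproteins that bind a Frizzled receptor and the co-receptors Lrp5 or Lrp6 on the cell surface. Without a ligand, a complex built on Axin and Apc marks β-catenin (Ctnnb1) for degradation. With a ligand this stops, and β-catenin enters the nucleus and turns on targets such as Axin2 and Lef1 together with Lef and Tcf factors. R-spondins strengthen the signal through Lgr receptors. Sfrp proteins and Frzb trap the ligands, while Dickkopf proteins such as Dkk1 block the co-receptors. Other Wnt ligands, for which Wnt5a and Wnt5b are the usual examples, also act through Ror2 without β-catenin. In the lung the pathway is best known for branching of the airways before birth and for the upkeep of alveolar cells.

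Promoters of 4 members on which the results turn are shown from RefSeq (build GRCr8), as the 250 bases upstream of the start site on the gene's strand. Wnt10a, Sfrp2 and Wnt3 are shown as the 3 largest rises in tumor among members with a promoter in that table. Axin2 is shown because it was the only one of these 26 members that held CTTTGAT, a form of the Lef and Tcf core motif. Capitals mark this form, which was searched on both strands (ATCAAAG on the other). Other forms of the motif were not searched.
Wnt10a, chr9:83798344-83798593, plus strand: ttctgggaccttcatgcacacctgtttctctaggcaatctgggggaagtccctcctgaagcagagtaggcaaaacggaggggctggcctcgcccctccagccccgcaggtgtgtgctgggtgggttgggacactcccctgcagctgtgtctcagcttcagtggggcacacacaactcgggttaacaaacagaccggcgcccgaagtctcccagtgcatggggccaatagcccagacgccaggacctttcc
Sfrp2, chr2:171387286-171387535, plus strand: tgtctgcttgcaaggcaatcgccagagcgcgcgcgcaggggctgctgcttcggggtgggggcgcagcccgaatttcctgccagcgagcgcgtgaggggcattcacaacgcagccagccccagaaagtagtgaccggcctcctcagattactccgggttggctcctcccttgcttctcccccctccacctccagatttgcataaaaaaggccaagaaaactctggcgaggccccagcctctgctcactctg
Wnt3, chr10:89179974-89180223, plus strand: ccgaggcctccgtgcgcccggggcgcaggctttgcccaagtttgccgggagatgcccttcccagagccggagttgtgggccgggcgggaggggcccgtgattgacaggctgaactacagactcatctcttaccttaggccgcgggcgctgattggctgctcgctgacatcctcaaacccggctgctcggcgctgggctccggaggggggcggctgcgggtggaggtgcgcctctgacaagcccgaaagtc
Axin2, chr10:94398535-94398784, plus strand: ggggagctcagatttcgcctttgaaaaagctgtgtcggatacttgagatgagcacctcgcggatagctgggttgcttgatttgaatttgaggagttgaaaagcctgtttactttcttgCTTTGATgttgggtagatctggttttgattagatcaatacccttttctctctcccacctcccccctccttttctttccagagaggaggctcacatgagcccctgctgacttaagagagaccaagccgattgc
In Axin2 the match began at position -132 from the start site. This 1 gene makes 3.85% of the members with a promoter, beside 3.15% of all 33469 promoters in the table. A match is a run of letters and not a measured binding site.

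Values are log2 processed signals, quantile-normalized among the 6 lung arrays. A probe entered the comparison when at least 3 of the 6 lung arrays showed it well above background, by the scanner software's own mark. A member was called changed when lung tumor and normal lung differed at least 2-fold with an adjusted p of at most 0.05 in limma, with Benjamini-Hochberg adjustment over all 12471 lncRNA and mRNA probes tested. Of the 37 members 25 passed the filter on low signal, against 74.6% of all mRNA probes. The software had marked spots as outliers, and for 5 of these 25 members the marks left too few arrays for the test (24.4% of mRNA probes that passed met the same fate). Those 5 members, Sfrp2, Dkk3, Wnt9a, Fzd6 and Rspo1, are given from a fit with the marked spots kept, over 15803 probes.

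The arrays within a group were unusually alike. Many lncRNA probes are printed in 3 spots, and the scatter among those spots sets the difference that technical noise alone would give between arrays. Squared differences were 0.467 to 0.816 times this value between normal lung arrays and 0.472 times between tumor arrays 2 and 3. These arrays differed by less than the sampling noise, so a further test counted the 3 normal arrays as 1 sample and tumor arrays 2 and 3 as 1 sample. That test borrows the spread of the averaged normal sample, which has none of its own, from the tumors. Its counts of members are given beside the main counts, and its adjusted p only for some genes. Every adjusted p of the main fit counts the near-identical arrays separately. Tumor array 1 differed from the other tumor arrays by 2.89 and 3.24 times the expected value. Tumor array 1 was scanned together with the 3 normal arrays and the other tumor arrays in another scan, so the comparison of tumor array 1 with normal lung is the only one within a scan. The labels do not say that the numbered samples came from separate rats, and the p values measure only the spread between these arrays.

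Among the 20 members tested, 4 were higher in lung tumor (Wnt10a, Dkk2, Wnt3 and Lef1), where 11.5% of all mRNA probes tested were. Another 5 were lower (Wnt10b, Dkk1, Wnt5b, Fzd1 and Wnt1), where 16.8% of mRNA probes were, and 11 were not called. The same members passed the methods' threshold of 2-fold with an unadjusted p of 0.05, met by 11.8% and 17.2% of mRNA probes. By adjusted p at any fold, 6 members were higher and 7 lower, against 32.6% and 33.4%. With the marked spots kept, 5 of 25 were higher, now with Sfrp2, and 7 of 25 were lower, now with Dkk3 and Wnt9a, against 11.7% and 15.3% of mRNA probes. The median log2 difference of the members tested was -0.15 (20 members), beside -0.0010 over all mRNA probes tested. All 3 tumor arrays lay above all 3 normal arrays for 8 of the 25 members that passed the filter and below them for 11, where 37.4% and 36.2% of mRNA probes did. Counting the near-identical arrays once left 3 members higher (without Lef1) and 3 lower (without Dkk1 and Wnt1). Leaving out normal array 1 left 3 lower, since Wnt1 was then under 2-fold (log2 difference -0.998) and Fzd1 could no longer be tested.

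**Figure D1:**
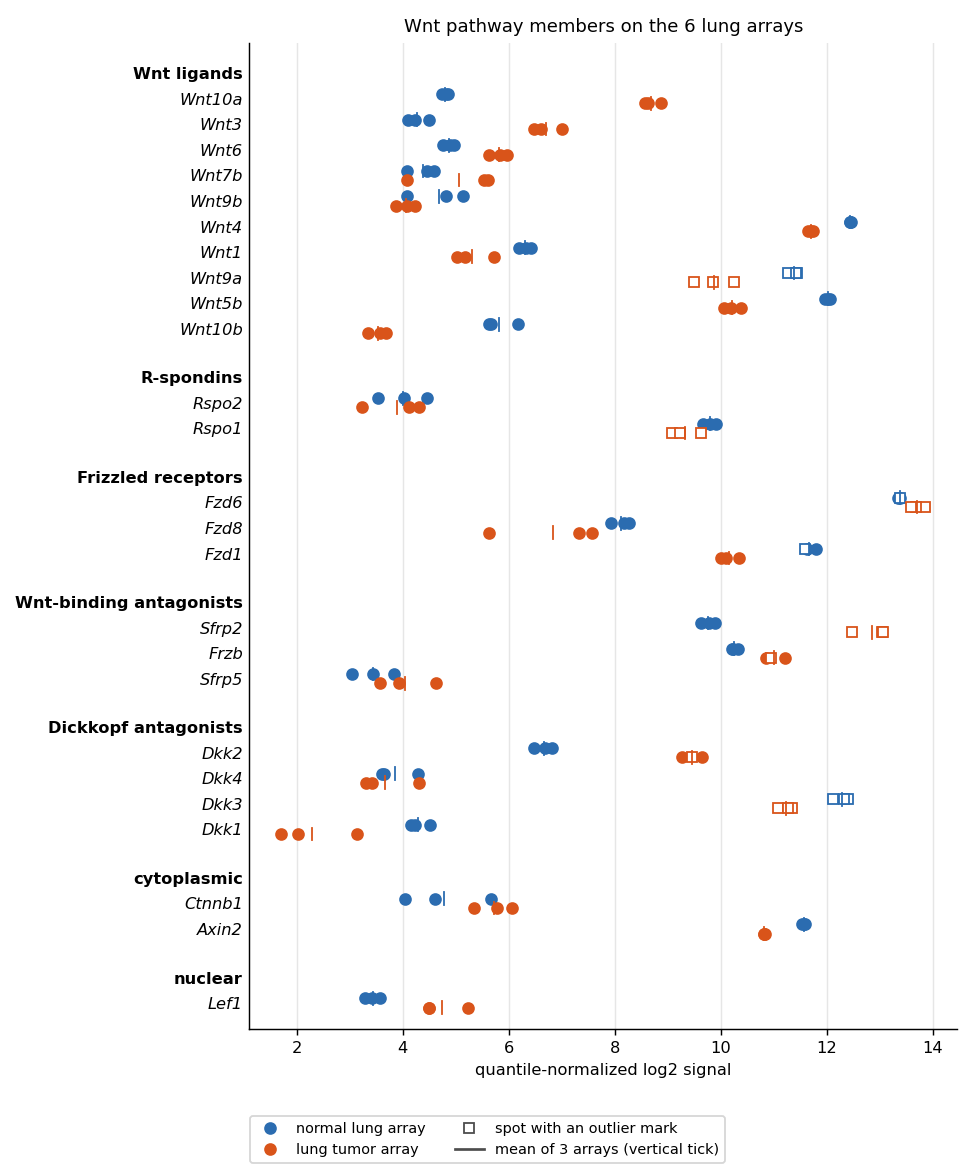
Quantile-normalized log2 signal (x axis) of the 25 members that passed the filter on the 3 normal lung (blue) and 3 lung tumor (orange) arrays, grouped by role. Open squares are spots with an outlier mark and vertical ticks are means of 3 arrays; Wnt10a, Sfrp2 and Dkk2 stand clearly to the right in tumor and Wnt10b, Wnt5b and Fzd1 to the left.

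Among the Wnt ligands, Wnt10a and Wnt3 rose in tumor while Wnt10b, Wnt5b, Wnt1 and, with marked spots kept, Wnt9a fell, and 4 of the 10 measured ligands were not called. Wnt10a (NM_001108227.1), a ligand of β-catenin signaling required for hair and teeth, had log2 signals of 4.85, 4.82 and 4.74 in normal lung (arrays 1 to 3, as in all such triples) and of 8.87, 8.56 and 8.64 in tumor. The 2 groups were far apart, and no other member tested differed by as much. The log2 difference was 3.88 ± 0.10 (SE, limma, adjusted p = 5.4e-06), which is 14.8-fold. Wnt3 (NM_001105715.1), a ligand needed for the primitive streak of the embryo, gave 4.50, 4.10 and 4.24 in normal lung, where 2 of the 3 arrays showed it well above background, and 7.01, 6.62 and 6.47 in tumor. Its groups did not overlap, and the log2 difference was 2.42 ± 0.18 (SE, limma, adjusted p = 1.4e-04), or 5.36-fold. Within the shared scan, tumor array 1 exceeded normal lung by 4.07 for Wnt10a and by 2.73 for Wnt3 on the log2 scale. With the normexp background correction, whose offset shrinks differences of dim probes by construction, the log2 differences were 2.41 for Wnt10a and 1.04 for Wnt3.

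The falls among the ligands were smaller than the rise of Wnt10a. Wnt10b (NM_001108111.1), the closest relative of Wnt10a and known for promoting bone formation, stood at 5.66, 5.63 and 6.17 in normal lung and at 3.68, 3.58 and 3.35 in tumor. Only 2 of the 3 tumor arrays showed Wnt10b well above background. On tumor array 1 its signal was below the lowest signal well above background there (3.71). All tumor arrays were below all normal arrays, with a log2 difference of -2.28 ± 0.18 (SE, limma, adjusted p = 1.8e-04). Wnt5b (NM_001100489.1), a ligand mostly linked to β-catenin-independent signaling, gave 12.02, 11.97 and 12.06 in normal lung and 10.37, 10.06 and 10.20 in tumor. The groups were separate with little spread in either, and Wnt5b fell by 1.81 on the log2 scale (SE 0.09, limma, adjusted p = 3.9e-05). Wnt9a (NM_001105783.1), a ligand with a role in joint formation, was marked as an outlier on all 6 lung arrays, with signals of 11.44, 11.27 and 11.42 in normal lung and 10.25, 9.85 and 9.50 in tumor. With these spots kept the groups were separate, and the log2 difference was -1.51 ± 0.20 (SE, limma, adjusted p = 0.0013), with an adjusted p of 0.090 when near-identical arrays were counted once. Within the shared scan the log2 differences were -2.14 for Wnt10b, -1.65 for Wnt5b and -1.12 for Wnt9a. With normexp, Wnt10b was at -0.65.

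Wnt1 (NM_001105714.1), first known as the mouse gene activated by mammary tumor virus, lay just inside the limit. Its signals were 6.33, 6.20 and 6.42 in normal lung and 5.72, 5.03 and 5.18 in tumor. The groups did not overlap, and the log2 difference of -1.0 ± 0.19 (SE, limma, adjusted p = 0.0063) was 2.00-fold. This call ended under 11 of the 19 alternatives run, among them the shared scan (-0.59), near-identical arrays counted once (-0.90), and the fits without normal array 1 (-0.998), normal array 3 (-0.95), tumor array 2 (-0.87) or tumor array 3 (-0.94).

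Wnt4, Wnt6, Wnt7b and Wnt9b were not called. Wnt4, which directs development of the kidney and of the female reproductive tract, was between 12.43 and 12.45 in normal lung and between 11.64 and 11.74 in tumor, a difference of -0.74 (adjusted p = 1.3e-04, limma) that was below 2-fold. Wnt6 was 0.94 higher in tumor on the log2 scale (adjusted p = 8.9e-04, limma), just under 2-fold, and passed the limit without tumor array 2 (1.02), within the shared scan (1.09) and with a 75th percentile shift (1.16). Wnt7b, a ligand of the airway epithelium during lung development, split the tumors: tumor array 1 stood at 4.08, just below the normal range of 4.09 to 4.59, while tumor arrays 2 and 3 stood at 5.53 and 5.61. Its log2 difference of 0.70 (adjusted p = 0.22, limma) became 1.19 (adjusted p = 0.0035) without tumor array 1 and -0.30 within the shared scan. Wnt9b differed by -0.62 (adjusted p = 0.11, limma), with overlapping groups. The remaining ligands Wnt5a, Wnt8a, Wnt8b and Wnt16 did not pass the filter in lung, and no lung array showed Wnt5a well above background.

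In the genome several of these ligands are neighbours. Among protein-coding genes of GRCr8, Wnt6 is next to Wnt10a on chromosome 9, Wnt1 next to Wnt10b on chromosome 7 and Wnt3 next to Wnt9b on chromosome 10. Wnt6 and Wnt10a were both higher in tumor, Wnt6 by less than 2-fold, and Wnt1 and Wnt10b both fell. Wnt3 rose while Wnt9b was not called, at -0.62.

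**Figure D2:**
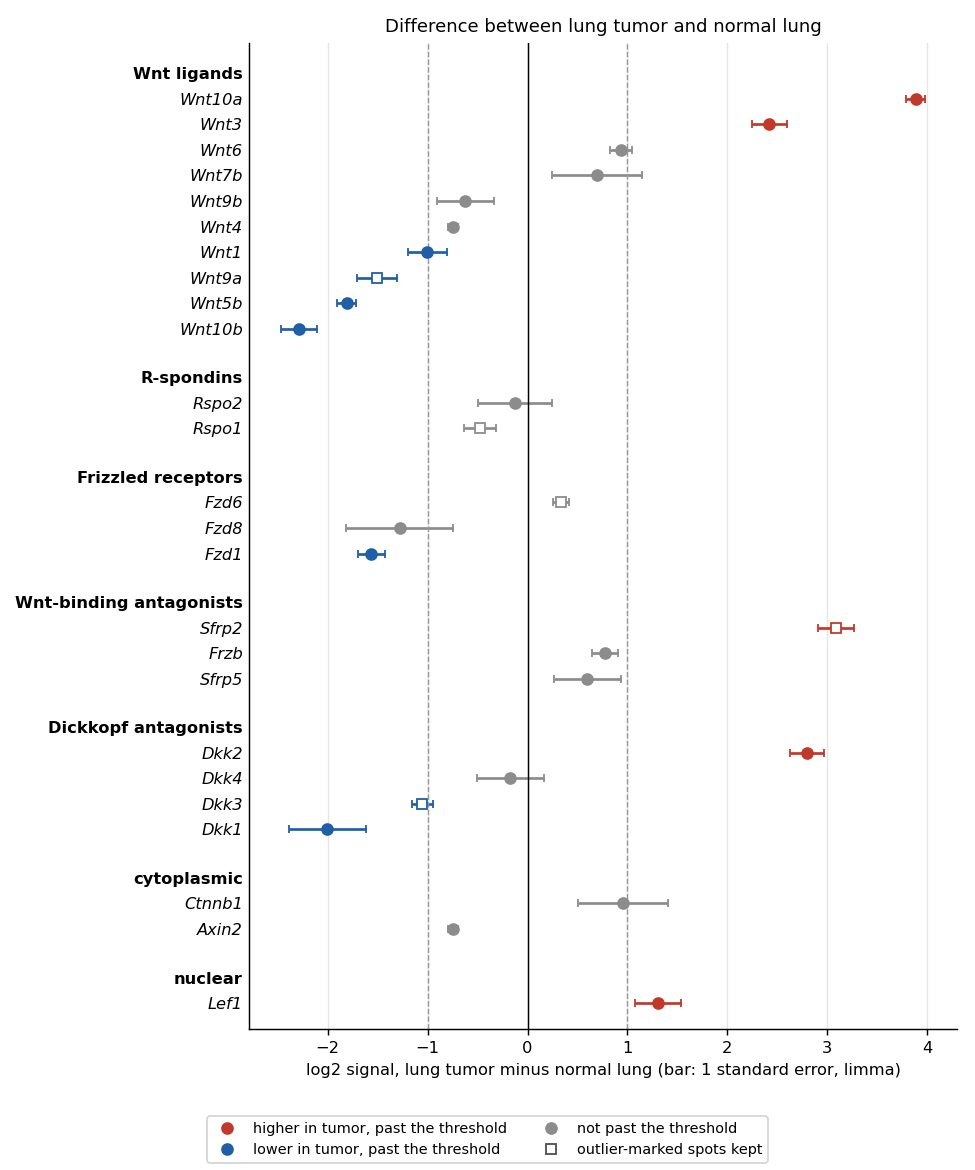
Difference in log2 signal between lung tumor and normal lung (x axis) for the 25 members that passed the filter, with bars of 1 standard error from limma, dashed lines at 2-fold and open squares for members fitted with marked spots kept. Wnt10a at 3.88 lies farthest to the right and Wnt10b at -2.28 farthest to the left.

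The secreted antagonists moved in both directions. Dkk2 rose, as did Sfrp2 with marked spots kept, while Dkk1 fell and Dkk3 fell with marked spots kept. Sfrp2 (NM_001100700.1), a secreted protein with a Frizzled-like domain that binds Wnt ligands, showed 9.63, 9.79 and 9.88 in normal lung and 12.47, 13.04 and 13.06 in tumor. All 3 tumor spots carried an outlier mark. With them kept the log2 difference was 3.09 ± 0.18 (SE, limma, adjusted p = 5.5e-05), or 8.50-fold, and the call held in all 13 alternatives run on it. Dkk2 (NM_001106472.1), a ligand of Lrp6 that can inhibit or, in some settings, activate the pathway, gave 6.82, 6.68 and 6.47 in normal lung and 9.65, 9.26 and, on a marked spot left out of the fit, 9.45 in tumor. Its groups were far apart, with a log2 difference of 2.80 ± 0.17 (SE, limma, adjusted p = 2.4e-04), or 6.96-fold. Because of the marked spot, Dkk2 could not be tested without tumor array 1 or without tumor array 2. Its call was lost with the methods' t-test in paired form, at a log2 difference of 2.71 and an adjusted p of 0.066. For Dkk2 that test lacked the pair of the marked spot. Within the shared scan the log2 differences were 2.70 for Sfrp2, with marked spots kept, and 2.99 for Dkk2.

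Dkk1 (NM_001106350.1), the best known blocker of Lrp5 and Lrp6 and itself a Wnt target, gave 4.23, 4.16 and 4.51 in normal lung and 3.13, 2.03 and 1.72 in tumor, where no array lifted it well above background. Its fitted log2 difference was -2.01 ± 0.38 (SE, limma, adjusted p = 0.0062), and it was 2.20-fold lower in tumor when set against background. That fold sets the normal mean against the lowest signal well above background on each tumor array, or the probe's own signal where that is higher. Some other probes lay above that level without being well above background, so it is not a strict limit. With near-identical arrays counted once the adjusted p for Dkk1 was 0.17, within the shared scan its log2 difference was -1.17, and with normexp it was -0.33. Dkk3 (NM_138519.1), a divergent member of the family, was marked on all 6 lung arrays, at 12.12, 12.40 and 12.31 in normal lung and at 11.33, 11.07 and 11.26 in tumor. With these spots kept the log2 difference was -1.05 ± 0.11 (SE, limma, adjusted p = 4.6e-04), and the call ended under 6 of 13 alternatives, below 2-fold among others without normal array 2 (-0.99), without tumor array 2 (-0.98) and within the shared scan (-0.94).

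Frzb, Sfrp5 and Dkk4 were not called. Frzb, which also traps ligands, was at 10.21 to 10.33 in normal lung and at 10.85 to 11.21 in tumor, and its log2 difference of 0.77 (adjusted p = 0.0069, limma) was below 2-fold. Sfrp5 differed by 0.60 (adjusted p = 0.17, limma) with overlapping groups, and by 1.18 within the shared scan, where only tumor array 1 enters. Dkk4 differed by -0.17 (adjusted p = 0.67, limma), with a sign that turned under 5 alternatives. Sfrp4 did not pass the filter in lung.

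Of the receptors, Fzd1 fell and none rose. Fzd1 (NM_021266.3), a Frizzled receptor that transmits β-catenin signals, gave 11.62, 11.80 and, on a marked spot left out of the fit, 11.59 in normal lung, against 10.09, 10.34 and 10.005 in tumor. The groups were separate, and the log2 difference was -1.56 ± 0.13 (SE, limma, adjusted p = 6.8e-04), or -1.61 within the shared scan. Because of the marked spot, Fzd1 could not be tested without normal array 1 or without normal array 2. Fzd8 stood at 7.92, 8.27 and 8.17 in normal lung and at 5.62, 7.57 and 7.33 in tumor. All tumor arrays were lower, but tumor array 1 was far below the other two, and the log2 difference of -1.28 ± 0.54 (SE, limma) had an adjusted p of 0.085. Within the shared scan, where only tumor array 1 enters, it was -2.5. Fzd6, which is best known for hair follicle and planar cell polarity, differed by 0.33 with marked spots kept (adjusted p = 0.016, limma), below 2-fold. Fzd2, Fzd4, Fzd5 and Fzd9 did not pass the filter. Among the R-spondins, Rspo1 differed by -0.47 with marked spots kept (adjusted p = 0.043, limma) and Rspo2 by -0.12 (adjusted p = 0.79, limma), with a sign that turned under 3 alternatives, while no lung array showed Rspo3 or the receptor Lgr5 well above background. The log2 signals of Lgr5 were 1.30, 3.55 and 2.33 in normal lung and 1.32, 1.61 and 1.32 in tumor.

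Inside the cell, Lef1 rose, and neither Axin2 nor Ctnnb1 was called. Lef1 (NM_130429.1), a DNA-binding partner of β-catenin and itself a Wnt target, gave 3.43, 3.57 and 3.30 in normal lung, never well above background there, and 4.49, 4.50 and 5.24 in tumor. The fitted log2 difference was 1.31 ± 0.23 (SE, limma, adjusted p = 0.0045). Set against the lowest signals well above background on the normal arrays, as for Dkk1, it was 1.85-fold higher in tumor, which is not a strict limit. With near-identical arrays counted once its adjusted p was 0.082, within the shared scan its log2 difference was 1.06, and with normexp it was 0.32. Axin2 (NM_024355.1), a scaffold of the complex that degrades β-catenin and a widely used readout of the pathway, showed 11.53, 11.57 and 11.58 in normal lung and 10.83, 10.81 and 10.81 in tumor. Every tumor array was below every normal array, with a log2 difference of -0.75 ± 0.05 (SE, limma, adjusted p = 8.5e-05) that was below 2-fold in all 19 alternatives (-0.82 to -0.64). Counting near-identical arrays once gave an adjusted p of 0.11. Ctnnb1 itself (NM_053357.2) gave 5.66, 4.05 and 4.62 in normal lung and 5.35, 5.77 and 6.06 in tumor. In normal lung 2 of the 3 arrays showed Ctnnb1 well above background. Its groups overlapped through normal array 1. The log2 difference of 0.95 ± 0.45 (SE, limma, adjusted p = 0.11) became 1.40 (adjusted p = 0.016) without that array, and was 0.22 with normexp. Apc did not pass the filter: its log2 signals were 4.11, 3.55 and 2.68 in normal lung and 3.49, 1.35 and 1.88 in tumor, and only 1 of the 6 was well above background.

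Further genes of the pathway that carry other names gave the context. From a list of 87 genes of secretion and surface, cytoplasm, nucleus and transcriptional targets, 64 had a probe, 58 passed the filter and 40 were tested. Of these 7 rose and 6 fell, and 27 were not called, where 11.5% and 16.8% of all mRNA probes tested rose and fell. With marked spots kept, 11 of 58 rose and 9 fell, against 11.7% and 15.3%. The falls were thus close to the share over the whole array. Of 11 surface genes tested 4 fell (Notum, Ror2, Ndp and Gpc3) and none rose, a small count to be set beside the same 16.8% and 11.5%. Ror2, a receptor for Wnt5a, fell by 1.73 (adjusted p = 4.4e-05, limma), and Ndp (norrin, a non-Wnt ligand of Fzd4) fell by 1.76 (adjusted p = 2.4e-04, limma), both on the log2 scale. With near-identical arrays counted once the adjusted p for Ndp was 0.058. In the cytoplasm 2 of 18 rose and 2 fell. Dact2, which binds Dishevelled, rose by 1.66 (adjusted p = 9.4e-06, limma), and Nkd2, another Dishevelled-binding inhibitor, fell by 1.83 (adjusted p = 4.8e-05, limma).

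Only 6 transcriptional targets on that list could be tested, of which 4 rose and none fell, beside 11.5% and 16.8% of mRNA probes. The 4 were Ccnd1, Ccn4, Mmp7 and Fosl1, and with normexp only Ccnd1 kept its call. Fosl1 also lost its call with near-identical arrays counted once and with the methods' paired t-test. Cyclin D1 (Ccnd1), which drives entry into the cell cycle, stood at 10.51, 10.62 and 10.56 in normal lung and at 12.83, 13.08 and 13.29 in tumor. It rose by 2.51 ± 0.13 on the log2 scale (SE, limma, adjusted p = 3.7e-05). Ccn4, a matricellular protein also called Wisp1, rose by 1.83 (adjusted p = 2.8e-05, limma), and was at 0.998, just under 2-fold, with normexp. Myc, with marked spots kept, rose by 1.098 on the log2 scale (adjusted p = 3.8e-04, limma), from 12.86, 12.93 and 12.79 to 14.15, 13.79 and 13.93. Its adjusted p was 0.073 with near-identical arrays counted once, and its difference was 0.91 with a 75th percentile shift. With marked spots kept 6 of the 10 targets that passed the filter rose and 1, Sp5, fell. Targets among the members are not in these counts: Lef1 rose, Dkk1 fell, and Axin2 was lower in tumor by less than 2-fold.

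**Figure D3:**
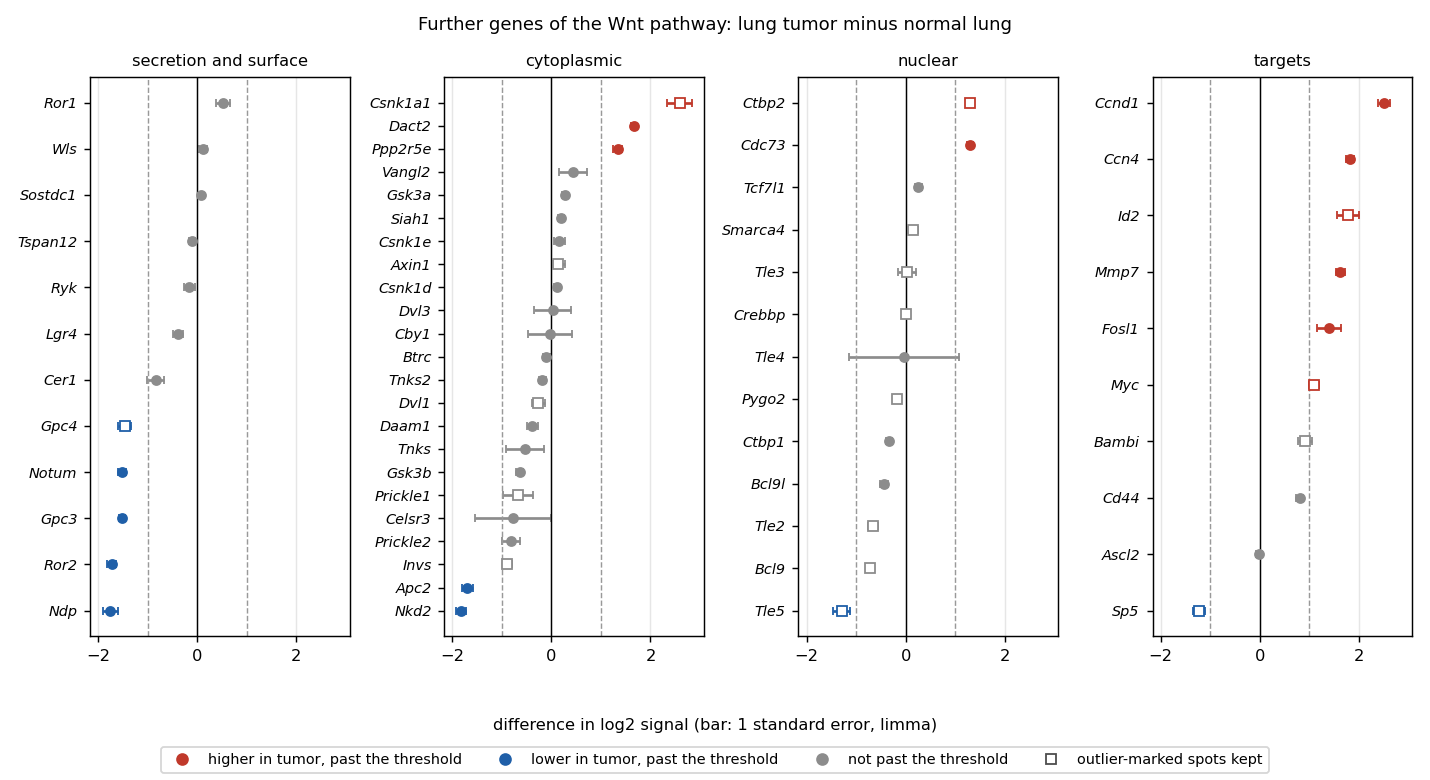
Difference in log2 signal between lung tumor and normal lung (x axis, bars of 1 standard error from limma) for the 58 further pathway genes that passed the filter, in 4 panels by place in the pathway, with dashed lines at 2-fold and open squares where marked spots were kept. Red genes rose, blue genes fell and grey genes were not called; the surface panel holds no red gene, and the target panel holds 1 blue gene.

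Markers of the cell types in these tissues moved between the same groups. The labelled lung was borne out by type 2 alveolar markers, 9 of 9 of which passed the filter, with 2 higher in tumor, none lower and summed linear signals of 1084860 to 1131540 in normal lung and 1331750 to 1371770 in tumor. All 5 endothelial markers that passed the filter fell, and their summed signal was 233043 to 242484 in normal lung against 47745 to 48404 in tumor. Of 10 type 1 alveolar markers 6 fell (sums of 1449470 to 1472370 and of 563787 to 591275), and of 7 fibroblast markers 2 fell and none rose (sums of 393392 to 411435 and of 326402 to 331427). Of 8 red blood cell markers 6 fell (sums of 439028 to 449220 and of 263881 to 295222). Genes of the liver, a list added after the data were seen, were higher in normal lung for 7 of the 8 that passed the filter, with sums of 29954 to 30722 against 3554 to 5039. Of the other lists, 3 of 11 T cell markers fell. Of 4 platelet markers 3 fell, although their summed signal was higher in tumor, at 4930 to 5268 in normal lung and 7749 to 9077 in tumor. In the remaining lists, 2 of 5 club and airway markers rose and 1 fell, 1 of 4 B cell markers rose and 1 fell, 1 of 5 proliferation markers rose, and none of 5 smooth muscle and 5 macrophage markers was called. The part of these shifts in the members' differences was not tested. In whole tissue, fewer cells of a type and less RNA per cell cannot be told apart.

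The 2 blood arrays, 1 of control blood and 1 of NNK blood, allow no test, and every difference between them lacks a replicate check. At least 1 of the arrays showed 21 of the 37 members well above background, against 67.3% of mRNA probes, and both arrays showed 16, against 54.6%. At 2-fold, 4 were higher in NNK blood (Sfrp2, Wnt6, Sfrp5 and Wnt4), where 26.0% of mRNA probes were, and 5 were lower (Wnt10a, Sfrp4, Wnt8b, Fzd5 and Fzd6), where 17.8% were. Members well above background on both arrays gave 1 higher and 3 lower of 16, against 21.1% and 13.6%.

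Of the members measured on both blood arrays, Wnt4 was at 4.75 in control blood and 6.19 in NNK blood, a log2 difference of 1.43. Wnt8b was at 6.01 and 4.55, a difference of -1.46. Fzd5 was at 6.16 and 4.83 (-1.33), and Fzd6 at 6.56 and 5.34 (-1.22). All 4 were under 2-fold with the normexp correction, with differences of 0.58, -0.59, -0.58 and -0.43 in the same order. In lung, none of the 6 arrays showed Wnt8b well above background and 1 showed Fzd5.

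In 5 members the probe was well above background on only 1 of the blood arrays. Their fold was taken against the lowest signal well above background on the other array, which is not a strict limit. Wnt10a, the member with the largest rise in lung tumor, was at 9.28 in control blood and not well above background in NNK blood. By this measure it was 33.0-fold lower in NNK blood. Sfrp4 was likewise seen in control blood only, at 7.20, and was 7.80-fold lower in NNK blood by the same measure. Sfrp2 at 7.61, Wnt6 at 6.75 and Sfrp5 at 5.84 were seen in NNK blood only, and were 9.99-fold, 5.50-fold and 2.94-fold higher there by that measure. With normexp the log2 differences were -3.21 for Wnt10a, -1.89 for Sfrp4, 2.07 for Sfrp2, 1.57 for Wnt6 and 0.89 for Sfrp5, so that Sfrp5 was under 2-fold. Wnt3, which rose in lung tumor, was at 9.66 in control blood and 8.95 in NNK blood, and Ctnnb1 was at 8.76 and 8.14. Axin2 was at 5.75 and 5.35 and Lef1 at 5.69 and 4.95. Red blood cell markers, 8 of 8 of which were well above background on both arrays, summed to 3281790 in control and 3243590 in NNK blood. Platelet markers summed to 150374 and 85284, with 4 of 5 well above background on each array. Other lists were higher in NNK blood: B cell markers summed to 195.6 in control and 1184 in NNK blood (3 and 4 of 6 well above background), macrophage markers to 4202 and 7418 (4 of 6 on each), fibroblast markers to 1783 and 2780 (4 and 5 of 9) and type 2 alveolar markers to 4098 and 9220 (6 and 8 of 9). The rise of the type 2 alveolar sum came from Napsa, at log2 signals of 11.49 in control and 13.02 in NNK blood. That of the fibroblast sum came from Fn1, at 9.45 and 11.11. Other genes of these lists moved in both directions. Proliferation markers summed to 2642 in control and 3642 in NNK blood (5 and 6 of 6 well above background). T cell markers summed to 35540 and 37407 (11 and 10 of 12), and they too moved in both directions. Cd8a was at 8.39 in control and 11.50 in NNK blood and Cd3e at 8.36 and 10.49, while Cd2 was at 13.40 and 12.87 and Cd3d at 12.73 and 12.47. The part of such shifts in the blood differences was not tested.

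**Figure D4:**
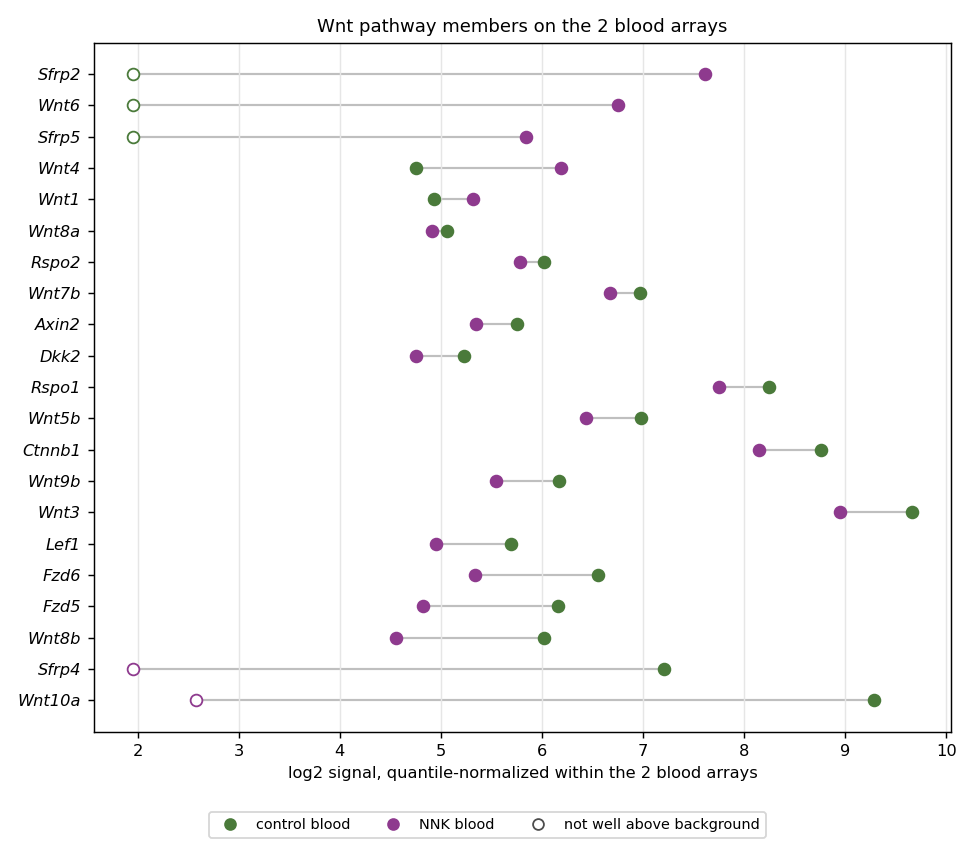
Log2 signal, quantile-normalized within the 2 blood arrays (x axis), of the 21 members that stood well above background on at least 1 of them, in control blood (green) and NNK blood (purple), ordered by their difference. Open circles are signals not well above background; the widest gaps, from Wnt10a at the bottom to Sfrp2 at the top, all end in an open circle.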

How the data were processed

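RNA of 8 samples was measured on Arraystar rat lncRNA arrays (1 colour, Cy3). The authors deposited, for each array, the intensity of every spot from Agilent Feature Extraction 10.5.1.1, background-subtracted and not normalized between arrays, and a table of log2 values that they quantile-normalized over all 8 arrays in GeneSpring. Groups came from the labels; 1 description, of the NNK blood sample, names a lung tumor, and this sample was used as blood by its other labels.

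Log2 processed signals of 42136 non-control spots were quantile-normalized in R 4.3.3 within the 6 lung and within the 2 blood arrays. Those marked as non-uniform or population outliers took part in this scaling and were left out afterwards. Spots of a probe were averaged. Lung groups were compared with limma 3.58.1 (lmFit and eBayes, group as the only term). Blood was compared by fold alone. Of 15323 mRNA probes 14274 (93.2%) were matched to RefSeq genes of GRCr8, and 26 of 37 members to a promoter there. Markers were read with marked spots kept.

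Outlier marks fell on 4.92% to 8.62% of spots well above background in normal lung, and on 15.9% to 25.3% in tumor. No spot was saturated. Depth does not apply to arrays; their number limits the precision.

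The members and lists were chosen with earlier results of these data known. Values on every array are given for members called, for Axin2, Lgr5, Lef1, Ctnnb1 and Apc, and for members changed 2-fold and well above background on both blood arrays; Fzd8 was added after its values were seen. Of the further pathway genes the 3 largest rises and falls, Myc and Ccnd1 were to be named; others named were chosen after their values were seen. The steps were tested on simulated data. Alternatives were other scalings, background correction, a floor, filters, marked spots kept, the authors' values, the methods' t-test and its paired form, replicate or scan as a block, near-identical arrays counted once, and each array left out.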

Additional observations from a re-analysis of the deposited data

How the results depend on the processing

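The 4 members higher and 5 lower in tumor were recomputed under 19 alternatives. The number higher ran from 2 (a stricter filter for signal on all 6 arrays, and the methods' paired t-test) to 6 (scan as a block), and the number lower from 2 (normexp) to 7 (marked spots kept). The number lower was 3 with the stricter filter, the paired t-test, near-identical arrays counted once and without normal array 1. Leaving out each array in turn gave 4 to 5 higher and 3 to 5 lower. Of the further pathway genes, 4 were higher with normexp and 11 with marked spots kept or the authors' values; leaving out each array gave 7 higher and 6 to 7 lower. In blood, 2 were higher and 2 lower with normexp, 1 higher and 3 lower when both arrays had to be above background, and 8 lower with the authors' values. Wnt10a, Wnt3, Wnt5b and Fzd1 kept their calls wherever they were tested. The sign of Dkk4 turned with a 75th percentile shift (0.11), normexp (0.00056), the scan as a block (0.46) and, left out in turn, normal array 1 or tumor array 3, within a range of -0.49 to 0.050 with each array left out. The sign of Rspo2 turned with a 75th percentile shift (0.088) and without normal array 3 or tumor array 1, within a range of -0.36 to 0.20 with each array left out, and that of Wnt7b with the scan as a block (-0.30). The causes were not tested, except that the stricter filter removes probes and normexp shrinks differences of dim ones by construction. Fits with marked spots kept together with another choice were chosen after the data were seen.

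The labels call the tumors matched. Deviations of arrays with the same number correlated at 0.14, -0.04 and 0.16 over 11359 probes, and those of arrays with different numbers at -0.19 to 0.14. The normal arrays differed by less than the sampling noise, so these values cannot decide whether the numbers are pairs. The main test did not use them as pairs. With the replicate block the same 4 members were higher and the same 5 lower, as were 7 and 6 of the further genes. With the methods' paired t-test, Dkk2 (adjusted p = 0.066, without the pair of its marked spot), Lef1, Dkk1 and Wnt1 lost their calls. Groups of 3 arrays are too small for a check on outlying samples.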
